A study of Rattus norvegicus with 6 samples.

Results

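A set of 10 endothelial genes was described in the rat hippocampus after noise: Apold1, the SoxF transcription factors Sox18, Sox17 and Sox7, the flow-responsive transcription factors Klf2 and Klf4, and the vessel wall genes Cldn5, Pecam1, Flt1 and Cdh5. They were taken by gene symbol, from rows of the expression table that carry 1 symbol. Of these 10 genes, 9 matched a row, each with 1 row, out of 20155 genes measured in this way. Pecam1 was not matched and is not analysed here. The set was selected with the result known, since Apold1 and Sox18 had passed the study's thresholds on these same arrays and the others were put beside them as genes of the same cell type. The difference between the groups is therefore given for these genes as a description, without a p-value.

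Affymetrix Rat Gene 2.0 ST arrays were used, on which many short probes together read the RNA of a gene. The rats were female Sprague-Dawley rats, 21 days old. The noise group heard white noise of 2 to 20 kHz at 115 dB SPL, 4 hours a day, over 3 days, and the control group stayed in the same kind of chamber with background sound of 40 to 60 dB. Rats of both groups were anaesthetized with Zoletil and xylazine for a hearing test 6 to 8 hours before they were sacrificed with carbon dioxide. There were 3 arrays per group, which the labels number 1, 2 and 6 for controls and 2, 3 and 4 for the noise group. The RNA on each was a pool of 2 rats, which makes 6 rats per group. The tissue was dissected around the dorsal CA3 field with adjacent CA2 and dentate gyrus and holds all cell types of that block, vessels included.

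Endothelial cells line the blood vessels, and in the brain they form the blood-brain barrier, with sealed junctions, few vesicles and many transporters. SoxF transcription factors act in partly overlapping ways in the formation of arteries, veins and lymph vessels, as shown in mice, and KLF2 and KLF4 are switched on in endothelium by steady blood flow and hold down inflammation and clotting. Apold1 is known as a vascular early response gene, whose mRNA is low in vessels at rest and rises within hours of stimuli such as seizures or lack of oxygen.

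The values are log2 signals, so that a difference of 1 is a doubling of signal, and the median signal of an array was 5.05. A gene was counted as higher or lower in the noise group when it had a limma p of at most 0.05 before adjustment together with a change of 1.5-fold or more, the cut-offs of the study, whose own p came from a t-test. Over all 20155 genes, 58 were higher (0.288%) and 120 were lower (0.595%), and 3 passed an adjusted p of 0.05. Counted relative to the mean of other endothelial genes on each array, the same numbers were 176 and 68. Without the fold threshold, 4.32% of genes were higher and 4.91% lower. In 8.37% of genes all 3 noise arrays lay above all 3 control arrays, and in 8.87% they lay below. An exact permutation test of 3 arrays against 3 cannot go below a two-sided p of 0.1. Any limma p here sets the difference between the groups against the spread between these pools of 2 rats. That spread is drawn by limma toward a value common to all clusters. The number of arrays limits the precision of every value below.

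Apold1 was the gene of the set with the largest difference, and Sox18 had the second largest, in the opposite direction. These were the 2 of the 9 measured genes past the thresholds, 1 higher and 1 lower, a count that restates how the set was chosen. The other 7 genes differed by 0.39 or less on the log2 scale, where the largest of them was the -0.39 of Sox17. The median difference over the 9 genes was 0.01, beside 0.00 over all genes, and 5 of the 9 were above 0. The noise arrays lay above the control arrays for 1 gene, Apold1, and below them for 2 genes, Sox18 and Cdh5, and the groups overlapped for the other 6. Over all genes the groups were apart in this way for 8.37% above and 8.87% below. In bulk tissue, fewer cells of a type and less RNA per cell cannot be told apart.

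**Figure D1:**
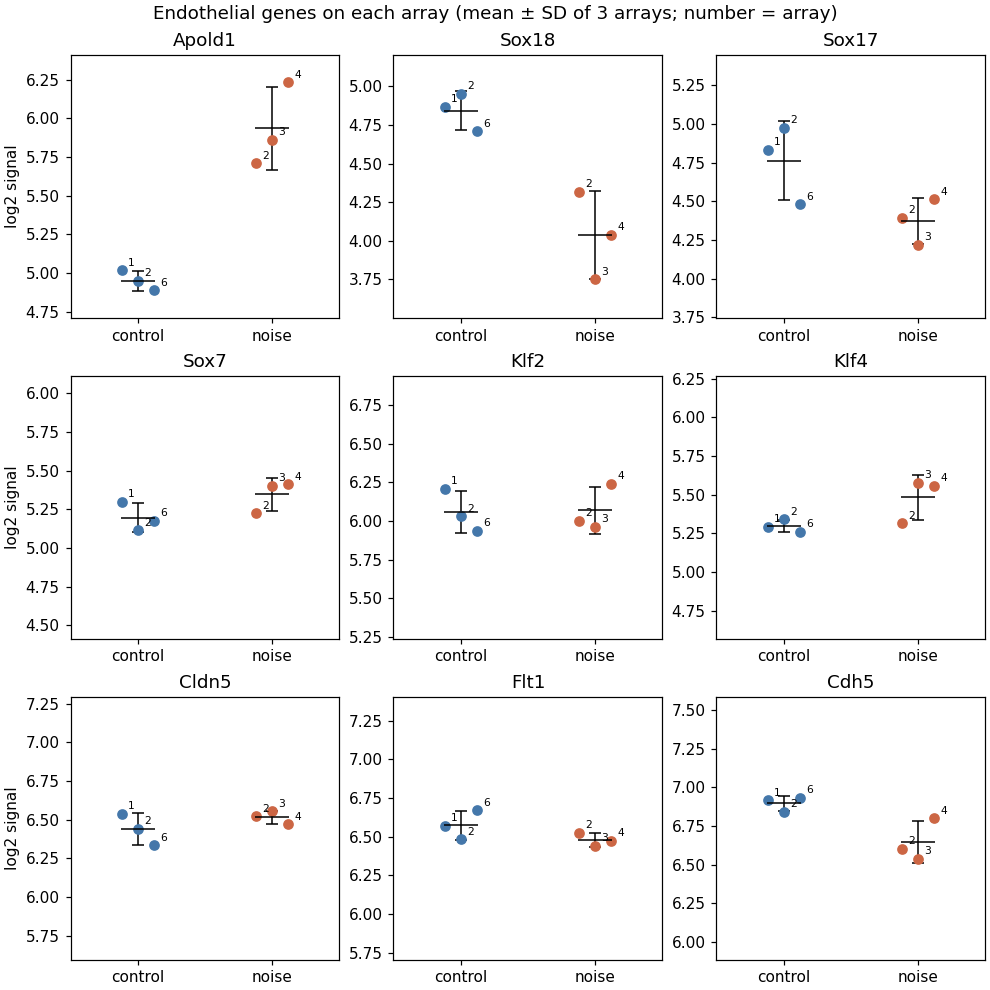
Log2 signal of the 9 measured endothelial genes on each array, with control arrays in blue and noise arrays in orange, the array's number beside its point, and lines for the mean ± SD of 3 arrays. Each panel has its own range of the same width; the groups are apart for Apold1, Sox18 and Cdh5 and overlap for the other 6 genes.

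Apold1, which encodes a protein with an apolipoprotein L domain, had log2 signals of 5.02, 4.95 and 4.89 for controls 1, 2 and 6. On noise arrays 2, 3 and 4 the signals were 5.71, 5.86 and 6.23. The control signals lay below the array median of 5.05, so that the rise was read from a dim baseline. Over all arrays, 48.7% of genes had a lower mean than Apold1. Every noise array was above every control array, and the noise arrays were more widely spread than the controls, with an SD of 0.27 against 0.07. The difference was 0.98 with a standard error (SE) of 0.14, or 1.98-fold, the 10th largest rise of the 20155 genes. With control arrays 1 and 2 left out, the 2 arrays with the most choroid plexus signal, it was 1.05. That setting leaves 1 control array, number 6, against 3 noise arrays, and a test in it takes the lone array to vary like the others. Of 6 listed genes of the apolipoprotein L family, which share this domain, 4 were measured and none passed the thresholds. Among them Apol3 had a difference of -0.34 (limma, adjusted p = 0.56) and Apol9a one of 0.05 (adjusted p = 0.95).

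The promoter of Apold1 is shown because this gene had the largest difference of the set, and that of Cldn5 because it is a vessel wall gene whose groups overlapped. Both are the 250 bases before the start of the gene as RefSeq gives it for the rat assembly GRCr8, written 5′ to 3′ on the gene's own strand with any match to a searched motif in capitals. The window of Apold1 is chr4:169552349-169552598 on the plus strand with 49.6% G and C. The window of Cldn5 is chr11:95718599-95718848 on the minus strand with 58.4% G and C. The median over 33469 rat promoters was 51.2%.
Apold1: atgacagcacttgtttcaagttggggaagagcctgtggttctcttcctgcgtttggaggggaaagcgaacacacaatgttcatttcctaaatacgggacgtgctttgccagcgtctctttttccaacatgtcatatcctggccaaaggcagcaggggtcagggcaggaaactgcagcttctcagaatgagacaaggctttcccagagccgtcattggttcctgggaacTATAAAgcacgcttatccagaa
Cldn5: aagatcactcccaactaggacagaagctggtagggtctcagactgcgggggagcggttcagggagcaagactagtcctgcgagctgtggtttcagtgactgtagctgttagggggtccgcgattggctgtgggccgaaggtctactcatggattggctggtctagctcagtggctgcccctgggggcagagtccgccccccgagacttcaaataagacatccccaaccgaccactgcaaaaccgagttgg

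The capitals in the Apold1 promoter are a TATA box, TATAAA, whose first base lies at -22, counted back from the start of the gene. It was found in 12.9% of all promoters. The other motifs searched, on both strands, were the cyclic AMP response element TGACGTCA (in 1.59% of promoters), the AP-1 site TGANTCA with C or G at N (4.05%), the CArG box (1.5%), the Egr site GCGTGGGCG (0.478%), the glucocorticoid response element GNACANNNTGTNC (0.373%), the SoxF core AACAAT (10.3%) and the KLF site CCACACCC (2.84%). None of these other letters stood in the Apold1 window, and none of the 8 motifs stood in the Cldn5 window. Of the 10 genes, 4 had a promoter in this collection, the others being Klf4 and Flt1, whose windows are not described here. A match is only a match of letters, and binding was not measured.

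Sox18 encodes a SoxF factor best known for its part in lymph vessel and vessel formation. Its log2 signals were 4.87, 4.95 and 4.71 for controls 1, 2 and 6. They were 4.32, 3.75 and 4.04 on noise arrays 2, 3 and 4. The noise arrays all lay below the controls, and noise array 3 was the lowest. The difference was -0.81 (SE 0.15), which is 1.75-fold lower and the 56th largest fall of all genes. Without control arrays 1 and 2 it was -0.67. The mean signal of 4.44 was below the median of an array, so that Sox18 was read at a dim signal, with 28.2% of genes dimmer. No detection calls were used.

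Sox17, a SoxF factor of arterial endothelium, was also dim, with a mean signal of 4.57. Its log2 signals were 4.83, 4.97 and 4.48 in controls and 4.39, 4.22 and 4.51 in the noise group. The groups overlapped, because control array 6 lay below noise array 4. The difference of -0.39 (SE 0.15) came to 1.31-fold and shrank to -0.11 without control arrays 1 and 2, and without control array 6 it was -0.53. Sox7, the remaining SoxF factor, had signals of 5.30, 5.12 and 5.18 in controls and 5.23, 5.40 and 5.41 in the noise group. Its groups overlapped too, and its difference of 0.15 (SE 0.10) had the opposite sign to those of Sox18 and Sox17. Of the 14 measured members of the wider Sox family outside SoxF, of 17 listed, none passed the thresholds and the median difference was -0.08. The 2 with the smallest p were Sox14, a neuronal gene read at a dim signal, with 0.36, and Sox13, a SoxD gene also active in vessels, with -0.29 (limma, adjusted p = 0.43 and 0.46).

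Klf2 and Klf4 code for zinc finger factors that respond to flow and hold endothelium in a resting state. The log2 signals of Klf2 were 6.208, 6.032 and 5.937 for controls 1, 2 and 6 and 6.003, 5.963 and 6.241 for noise arrays 2, 3 and 4. Its highest noise array and the highest control array were close to each other, and the difference was 0.01 (SE 0.12). Klf4 had signals of 5.29, 5.34 and 5.26 in controls and 5.32, 5.58 and 5.56 in the noise group. Noise arrays 3 and 4 were above all controls and noise array 2 lay among the controls, with a difference of 0.19 (SE 0.11). Of the 15 other measured genes of the Klf family, none passed the thresholds. Without the fold threshold 4 were higher and 2 lower (4.32% and 4.91% of all genes), and the median difference was 0.04. The 2 with the smallest p were Klf9, a target of glucocorticoid and thyroid hormone, with 0.35, and Klf11, with 0.48 (adjusted p = 0.36 and 0.40). Klf11 passed both thresholds when noise array 4 was left out, at 0.61.

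Genes that KLF2 and KLF4 are known to control in endothelium were counted in the same way. All 22 listed genes were measured, and none passed the thresholds. Their median difference was 0.06 and 14 of them were above 0. Nos3, the endothelial nitric oxide synthase and a textbook KLF2 target, had a difference of 0.00 (SE 0.09), chosen after its value was seen. Thbd, which codes for the anticoagulant thrombomodulin, had a difference of 0.27 (adjusted p = 0.49).

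Cldn5 encodes the main claudin of the tight junctions of brain endothelium. Its log2 signals were 6.54, 6.44 and 6.33 for controls 1, 2 and 6 and 6.52, 6.56 and 6.47 for noise arrays 2, 3 and 4. Its groups overlapped, with a difference of 0.08 (SE 0.10). Flt1, a receptor for vascular endothelial growth factor, had signals of 6.57, 6.48 and 6.67 in controls and 6.53, 6.44 and 6.47 in the noise group. These overlapped as well, with a difference of -0.10 (SE 0.09).

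Cdh5, which codes for VE-cadherin of the endothelial adherens junction, had log2 signals of 6.92, 6.84 and 6.93 on the control arrays and 6.60, 6.54 and 6.80 on the noise arrays. The noise arrays were all lower than the controls, but noise array 4 came close to control array 2. The difference of -0.25 (SE 0.10) was 1.19-fold and under the fold threshold. Of the 20 measured genes of endothelial junctions, of 21 listed, none passed the thresholds, and the median difference was -0.03. Ocln, which encodes the tight junction protein occludin, stood furthest from 0. Its signals were 5.83, 5.69 and 5.65 in controls and 5.20, 5.26 and 5.16 in the noise group, with no overlap and a difference of -0.52 (SE 0.09, adjusted p = 0.29). Vcl, for vinculin, had a difference of 0.22 (adjusted p = 0.55).

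A list of 40 other endothelial genes, of which 38 were measured, served to place these differences among genes of the same cells. None of the 38 passed the thresholds in either direction, although with a fold threshold of 1.2 in place of 1.5, 7 were lower. Their median difference was -0.11, beside 0.00 over all genes, and 15 were above 0. At an unadjusted limma p of 0.05 and any fold, 0 were higher and 7 were lower (4.32% and 4.91% of all genes). In 9 of the 38, all noise arrays lay below all control arrays (8.87% of all genes). The smallest adjusted p among them was 0.33. Without control arrays 1 and 2, with 1 control array left, the 7 became 2, while the share of all genes lower at any fold went from 4.91% to 1.93%. Kdr and Eng were not matched and are not analysed here.

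The genes with the 2 smallest p were Emcn, for the sialomucin endomucin of veins and capillaries, and Podxl, for podocalyxin of the luminal surface. Emcn had log2 signals of 6.34, 6.27 and 6.07 for controls 1, 2 and 6 and 5.65, 5.73 and 5.84 for noise arrays 2, 3 and 4. Its difference was -0.49 (SE 0.11, adjusted p = 0.33). Podxl had signals of 7.18, 7.07 and 7.13 in controls and 6.70, 6.72 and 6.79 in the noise group, with a difference of -0.39 (SE 0.09, adjusted p = 0.33). Both genes had noise arrays close to each other and below every control array. Without control arrays 1 and 2 the differences were -0.33 for Emcn and -0.39 for Podxl.

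Plvap makes the diaphragms of fenestrated capillaries, which the choroid plexus has and the barrier vessels of the hippocampus lack. Its log2 signals, dim on all arrays, were 4.98, 4.83 and 4.95 in controls and 4.32, 4.37 and 4.65 in the noise group. The groups did not overlap, and the difference was -0.47 (SE 0.12, adjusted p = 0.36). Without control arrays 1 and 2 it was -0.50. Chosen after their values were seen, Tm4sf1, a membrane protein gene read at a dim signal, had a difference of -0.42, Arap3, for a GTPase-activating protein of vessel growth, one of -0.33, and Fli1, an ETS transcription factor of endothelium, one of -0.46. Leaving out noise array 4 brought 1 gene of the list, Fli1, past both thresholds, at -0.62. At the other end, Cd34, a surface sialomucin of endothelium named on the same basis, had the highest difference of the list, 0.33 (SE 0.23), with signals of 5.89, 6.25 and 5.99 on the control arrays and 6.13, 6.92 and 6.09 on the noise arrays. The groups overlapped for Cd34, and noise array 3 alone stood high.

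**Figure D2:**
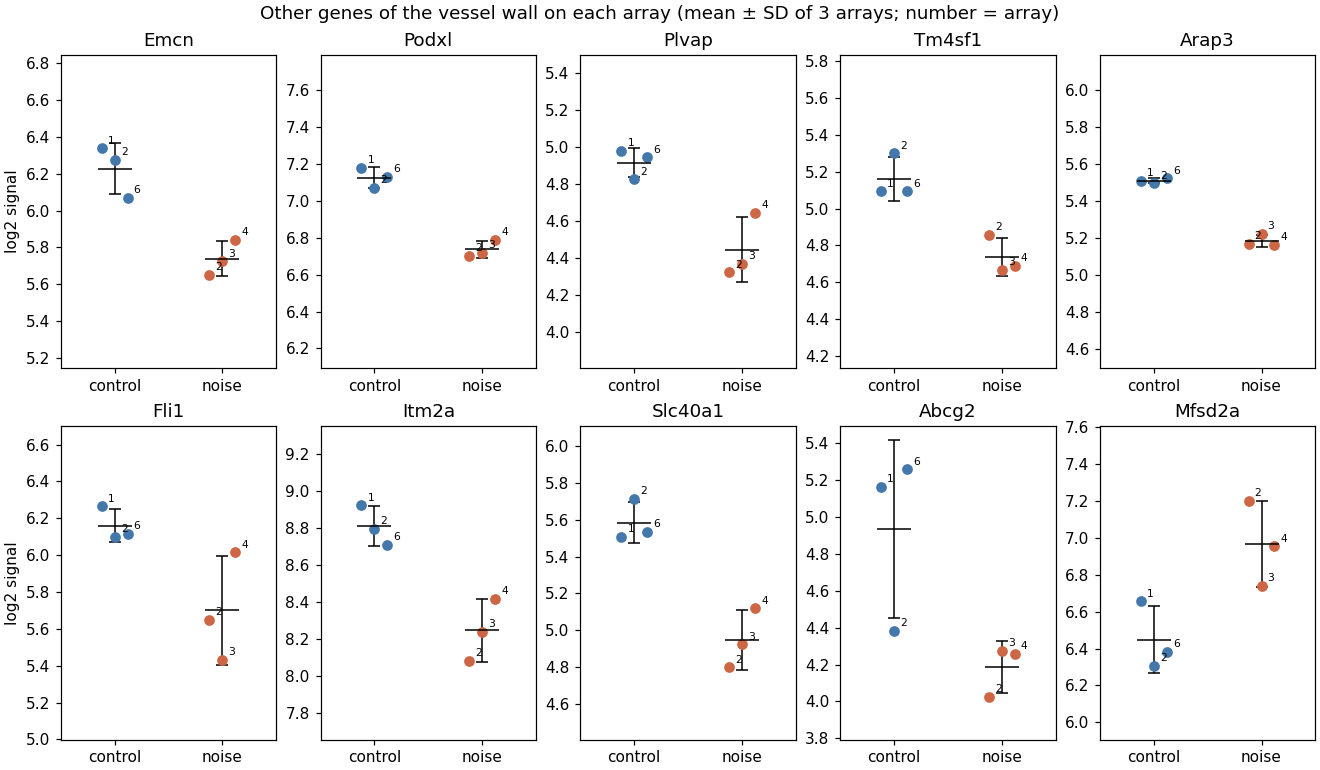
Log2 signal on each array (blue control, orange noise, number of the array beside the point, lines for the mean ± SD of 3 arrays) of 6 other endothelial genes and 4 genes of blood-brain barrier endothelium. Each panel has its own range of the same width. The 10 genes were picked with their values known, so they do not stand for the lists. Of the 10 genes, 9 were lower on the noise arrays and Mfsd2a was higher, and all 3 noise arrays were apart from all 3 control arrays in each. In the full lists, 15 of 38 and 9 of 29 genes had a difference above 0.

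The mean signal of the 38 other endothelial genes was 5.63, 5.54 and 5.60 for controls 1, 2 and 6 and 5.44, 5.55 and 5.47 for noise arrays 2, 3 and 4. They overlapped, since noise array 3 was just above control array 2, and the difference was -0.11. Taken relative to this mean on each array, the difference of Apold1 was 1.09, that of Sox18 was -0.70 and that of Sox17 was -0.28. Klf2 then stood at 0.12, Klf4 at 0.29, Sox7 at 0.26 and Cldn5 at 0.19. Flt1 was at 0.01 and Cdh5 at -0.14. This scaling adds the same amount to the difference of every gene, and among the 9 genes it turned the sign of Flt1 only.

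Transporters and other genes of blood-brain barrier endothelium formed a list of 30, of which 29 were measured. None was higher at the thresholds and 2 were lower, Abcg2 and Slc40a1, beside 0.595% of all genes. Neither of the 2 passed a limma adjusted p of 0.05. The median difference was -0.09 and 9 of the 29 were above 0. Without the fold threshold 1 was higher and 9 were lower (4.32% and 4.91% of all genes). In 10 all noise arrays lay below all control arrays (8.87% of all genes). Without control arrays 1 and 2 the 9 became 3, in the same setting with 1 control array where the share of all genes went to 1.93%, and without control array 1 alone they became 5. The mean signal of the list was 6.59, 6.50 and 6.48 on the control arrays and 6.34, 6.40 and 6.40 on the noise arrays, without overlap.

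Abcg2, the efflux pump also called breast cancer resistance protein, had log2 signals of 5.16, 4.38 and 5.26 for controls 1, 2 and 6 and 4.02, 4.28 and 4.26 for noise arrays 2, 3 and 4. Its mean was below the array median. Control array 2 stood near the noise arrays and the other controls well above them. The difference was -0.75 (SE 0.23, adjusted p = 0.39), and the methods' t-test did not call it. Slc40a1 codes for the iron exporter ferroportin, and its signals were 5.51, 5.71 and 5.53 in controls and 4.80, 4.92 and 5.12 in the noise group. The groups were apart, with a difference of -0.64 (SE 0.12, adjusted p = 0.29). It fell short of the fold threshold without control array 2, at -0.57, without noise array 2, at -0.56, and relative to the other endothelial genes, at -0.53.

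Further genes of this list are named after their values were seen. Itm2a, an integral membrane protein gene with high signal in brain endothelium of mice, had signals of 8.92, 8.80 and 8.71 on the control arrays and 8.08, 8.24 and 8.42 on the noise arrays. Its difference was -0.56 (SE 0.12, adjusted p = 0.33), and it passed the thresholds without control array 6, at -0.61, or without noise array 4, at -0.65. Slco1a2, an organic anion transporter whose match to the listed Slco1a4 rests on a synonym, differed by -0.45 (adjusted p = 0.30), and Abcb1a, for the efflux pump P-glycoprotein, by -0.30 (adjusted p = 0.44).

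Mfsd2a, which carries lipids with docosahexaenoic acid across the barrier and keeps its vesicle traffic low, stood on the other side. Its log2 signals were 6.66, 6.31 and 6.38 for controls 1, 2 and 6 and 7.20, 6.74 and 6.96 for noise arrays 2, 3 and 4. Every noise array was above every control, and the difference was 0.52 (SE 0.15, adjusted p = 0.37), short of the fold threshold. It passed without control array 1, at 0.62, and without noise array 3, at 0.63.

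**Figure D3:**
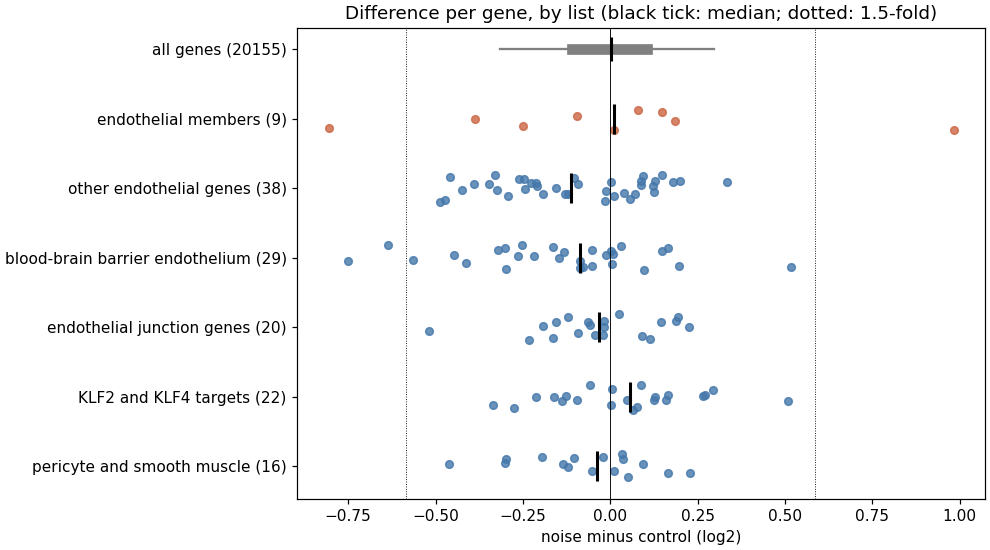
Difference of noise minus control on the log2 scale for each measured gene of 6 lists, 1 point per gene, with a black tick at the median and dotted lines at a fold change of 1.5. For all 20155 genes the grey box runs from the 25th to the 75th percentile and the grey line from the 5th to the 95th. Apold1 and Sox18 of the set, and Abcg2 and Slc40a1 of the barrier list, lie beyond the dotted lines. The lists of other endothelial and barrier genes have medians of -0.11 and -0.09.

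Markers of other cells of the same tissue were read beside these values. Of 20 choroid plexus genes, 12 were lower at the thresholds, beside 0.595% of all genes, and none was higher. Ttr, the transthyretin of the plexus epithelium, had a difference of -4.26. Its signals were 11.73, 10.89 and 9.08 for controls 1, 2 and 6 and 6.36, 5.09 and 7.47 for noise arrays 2, 3 and 4. Otx2, Kl and Kcnj13 differed by -2.56, -2.48 and -2.36. The list's mean signal was 7.09, 6.53 and 5.57 in controls and 5.10, 5.04 and 5.28 in the noise group, with control arrays 1 and 2 the highest. With those arrays left out and 1 control array remaining, the differences were -2.78 for Ttr, -0.93 for Kl and -1.015 for Kcnj13. Otx2 then had -0.72, still past the fold threshold, and missed the threshold on p. The part of the choroid plexus, which has endothelium of its own, in the lower signals of Plvap, Emcn, Podxl, Slc40a1 and the other genes above was not tested.

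Of 14 measured genes of meningeal and perivascular fibroblasts, 3 were lower, beside 0.595% of all genes, and none was higher. These were Fmod, for fibromodulin, with -0.93, the growth factor Igf2 with -0.80, and the sulfate transporter Slc13a4 with -0.64. Without control arrays 1 and 2, Fmod was at -0.47 and Slc13a4 at -0.30, short of the thresholds. Igf2 missed them without control array 1, at -0.58, and so did Slc13a4 without that array, at -0.43, without noise array 2, at -0.54, and without noise array 4, at -0.58. Igf2 also missed them with the mean of all its rows, at -0.51, and with Welch's version of the t-test. Slc13a4, whose groups overlapped, also missed them with the methods' t-test and with Welch's version of it. Relative to the other endothelial genes it was at -0.53, again short. The list's mean signal was 6.57, 6.40 and 6.40 on the control arrays and 6.09, 6.43 and 6.23 on the noise arrays, with overlap. Its part in the endothelial values was not tested.

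Of 16 measured genes of pericytes and smooth muscle, the cells around the endothelium, none passed the thresholds, and the median difference was -0.04. The list's mean signal was 5.82, 5.73 and 5.88 in controls and 5.64, 5.76 and 5.84 in the noise group, and the groups overlapped. Abcc9, a subunit of the pericyte potassium channel, had a difference of -0.46 and Rgs5, a regulator of G-protein signaling, one of -0.30 (limma, adjusted p = 0.41 and 0.47). Abcc9 passed both thresholds without noise array 4, at -0.59. Of 8 red blood cell genes measured, none passed: Hba1, a globin gene, differed by -0.22 and Alas2, of heme synthesis, by -0.26. For astrocyte, neuron and oligodendrocyte lists of 9, 10 and 10 genes, the mean signals differed by 0.00, -0.02 and 0.02, and no gene passed.

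**Figure D4:**
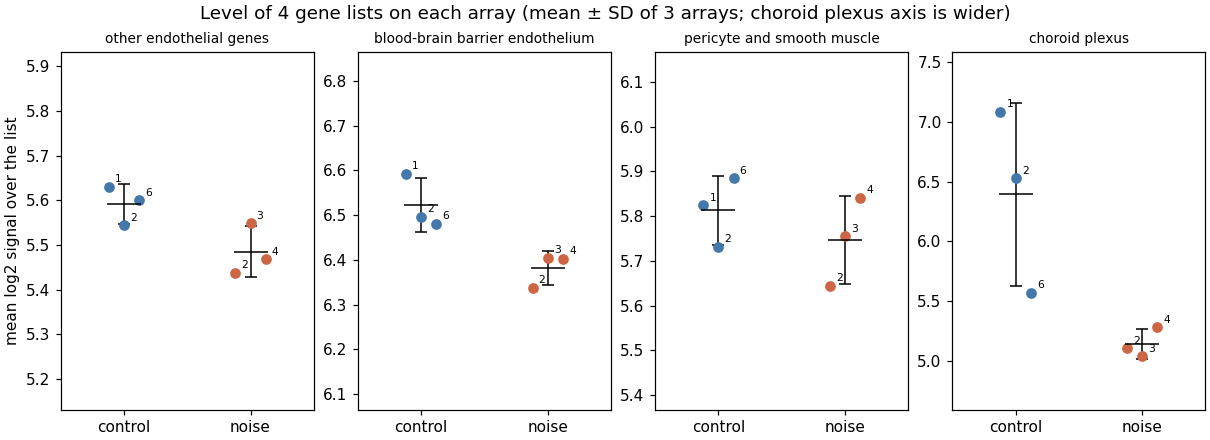
Mean log2 signal of 4 gene lists on each array, control in blue and noise in orange, with the array's number beside the point and lines for the mean ± SD of 3 arrays. The choroid plexus panel spans a wider range than the other 3; its control arrays lie at 7.09, 6.53 and 5.57, and the barrier list has its noise arrays below its control arrays.

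Since Apold1 is an early response gene, the immediate early genes of the tissue were counted beside it. Of 27 measured, of 28 listed, 6 were higher and 1 was lower (0.288% and 0.595% of all genes), with a median difference of 0.29. The members with the largest differences were Fos, a subunit of AP-1, with 1.67, Zfp36, whose protein speeds the decay of mRNAs, with 1.46, and Dusp1, a phosphatase of MAP kinases, with 1.40. Npas4, a transcription factor of active neurons that was read at a dim signal, fell by 0.69. Without the fold threshold 14 were higher and 4 lower (4.32% and 4.91% of all genes). Besides Npas4 the lower ones were Arc (-0.57), Nr4a3 (-0.25) and Egr4 (-0.24). Zfp36 was the gene of this list past an adjusted p of 0.05 (limma, adjusted p = 0.022). Npas4 missed the fold threshold without control array 2, at -0.54, without control arrays 1 and 2, at -0.44, and relative to the other endothelial genes. This list was chosen with its behaviour on these arrays known. The cells in which Fos, Zfp36 or Apold1 was raised cannot be told from bulk tissue.

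Of 22 measured genes of endothelial activation, of 24 listed, 1 was higher at the thresholds and none lower. This was Nfkbia, which encodes the inhibitor of NF-kappaB and is active in many cell types. Its log2 signals were 6.65, 6.64 and 6.64 for controls 1, 2 and 6 and 8.01, 7.69 and 7.67 for noise arrays 2, 3 and 4. Its groups were far apart, with a difference of 1.14 (SE 0.12, adjusted p = 0.073). The median difference of the list was 0.06, and 13 of 22 were above 0. Without the fold threshold 4 were higher and 1 was lower (4.32% and 4.91% of all genes). Among the 4 was Plat, the tissue plasminogen activator, named after its value was seen, with 0.51 (limma, adjusted p = 0.28).

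For Apold1, Sox18 and Klf2 the genes whose signals followed theirs most closely over the 6 arrays were looked up by Pearson's r, among genes with a mean at or above the array median. The 6 arrays hold both groups, and with so few arrays high values of r are frequent: 31 genes had r above 0.95 with Apold1, 38 with Sox18 and 12 with Klf2, of 11962, 11963 and 11962 compared. Nearest to Apold1 were LOC688613 (r 0.991), Arrdc3 (0.991), Fgf22 (0.988), Shkbp1 (0.985) and Pde6h (0.984). Arrdc3, which encodes an arrestin-like protein, had signals of 7.32, 7.25 and 7.20 in controls and 7.62, 7.65 and 7.76 in the noise group. Nearest to Sox18 were Gpatch8 (0.986), Rbl2 (0.985), Abtb1 (0.982), Pclo (0.979) and Simc1 (0.979). None of these genes is on the endothelial lists. Nearest to Klf2, whose groups overlapped, were Pcm1 (0.991), Rbm28 (0.986), Mfsd7 (0.977), Shh (0.972) and Hps5 (0.970). Pcm1, of the centriolar satellites, had signals of 8.30, 8.20 and 8.13 on the control arrays and 8.16, 8.13 and 8.31 on the noise arrays, with control 1 and noise 4 the highest, as for Klf2.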

How the data were processed

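Hippocampal RNA was measured on 6 arrays, 3 per group. From the scans, the authors computed log2 signals in GeneSpring GX by RMA (Robust Multi-Array Average, default settings: background correction, log2 transformation, summary of probes per transcript cluster). No further normalization was applied here to these deposited log2 signals. RMA compresses the differences of dim genes. The deposited table also holds fold changes, log ratios, directions and p-values of the authors' own comparison, which were not used, and an annotation block on its right-hand side that was not used either. Depth does not apply to arrays.

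The 10 genes and all gene lists were chosen with earlier results of these data known. Symbols were matched ignoring case, on rows with 1 symbol, with the brightest row per gene. Of 373 list entries, 345 matched by symbol, 6 by a synonym in RefSeq's gene table (GRCr8), and 22 did not match. All 29489 clusters were fitted with limma 3.58.1 (lmFit and eBayes) in R 4.3.3, with the group as the only term, with Benjamini-Hochberg adjustment across the clusters. Counts over genes used 20155 genes. The rule for names took the 10 genes, and from each list up to 4 genes past the thresholds or, with none, up to 2 with the smallest p. It also took Plvap, Ttr and the 5 genes most like Apold1, Sox18 and Klf2. The fit was tested on simulated data with 200 changed clusters. Promoters came from RefSeq (GRCr8), without a genome. There were 18 alternatives: the series matrix in place of the table, renewed quantile normalization, median centring, a mean-variance trend, array quality weights, bright clusters only, the methods' t-test and Welch's version of it, the mean of all rows of a gene, a fold threshold of 1.2, values relative to the other endothelial genes, each array left out in turn, and control arrays 1 and 2 both left out. A result that the rule for names would include is not reported here.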

Additional observations from a re-analysis of the deposited data

How the results depend on the processing

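Apold1 had differences of 0.84 to 1.10 over the 18 alternatives, and Sox18 had -0.95 to -0.66 over the 17 in which it had a value. Both were chosen because they passed the thresholds on these same arrays, so these ranges are a description and no independent support. The series matrix, renewed quantile normalization and median centring left both differences unchanged, at 0.98 and -0.81. With bright clusters only, which leaves out Sox18 and Sox17 by construction, 0 of the genes were lower, and at a fold threshold of 1.2, 2 were, as Sox17 was added. The difference of Klf2 had the same sign in 15 of 18 alternatives (-0.08 to 0.13) and that of Flt1 in 17. At a fold threshold of 1.2, 7 of the other endothelial genes were lower, and with 1 array left out 0 to 1. Lower at any fold were 7 of them and 9 of the barrier genes. Relative to the other endothelial genes these became 4 and 4, while the share of all genes lower went from 4.91% to 1.48%. That setting adds the same amount to every difference, and the other endothelial genes themselves set the amount. That setting also changes the spread of each gene between arrays, and the cause of the fall in these counts was not tested. With 1 array left out the counts at any fold were 6 to 8 and 5 to 9. Of 820 values of 46 other named genes under alternatives, 757 kept their side of the thresholds, 24 lost a call, 39 gained one and 0 turned direction with a call.

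Over all genes, the 58 higher and 120 lower were 19 and 63 with bright clusters only, 36 and 73 with the methods' t-test, 29 and 57 with Welch's version and 760 and 873 at a fold of 1.2. Left-out arrays gave 69 to 133 and 116 to 208, and control arrays 1 and 2 left out gave 132 and 155. Relative to the other endothelial genes, at any fold, 11.9% of all genes were higher and 1.48% lower. The cause of these shifts was not tested. No paired analysis was made, since each array pooled rats of 1 group and the labels name no pairs. Dim genes, Sox18 and Sox17 among them, are read below the array median, and 3 pools per group limit every value.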

Other observations

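Lists of neighbouring pathways were counted with the same thresholds, and in none of those given here did a gene pass. All 15 hypoxia response genes were measured, 12 of them with a difference above 0, and their median was 0.13. Ddit4, an inhibitor of mTOR signaling, was just short of the fold threshold with 0.58 (limma, adjusted p = 0.28), and Ndrg1 had 0.42 (adjusted p = 0.39). Ddit4 passed in 7 of its 18 alternatives. Of 20 measured Notch and arterial genes, Jag1, a ligand of Notch, had a difference of -0.45 and Hes1, a target of Notch, one of 0.43 (adjusted p = 0.36 for both). Hes1 had signals of 5.64, 5.58 and 5.71 for controls 1, 2 and 6 and 5.91, 6.25 and 6.05 for noise arrays 2, 3 and 4, without overlap. Of 15 genes of VEGF and angiopoietin signaling none had overlap-free groups, and Tie1, a receptor of endothelium, differed by -0.26 and Vegfa by 0.19 (adjusted p = 0.56 and 0.57). Among 14 microglia and macrophage genes, C1qb, of complement, differed by 0.25 and the chemokine receptor gene Cx3cr1 by -0.31 (adjusted p = 0.45 and 0.50).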
